A study of Mus musculus with 4 samples.

Results

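The genes described here are 10 genes of bile acid synthesis and its control in mouse liver, measured by single-cell RNA sequencing in 4 livers that differ in the co-activators YAP and TAZ. They are the enzymes Cyp7a1, Cyp8b1, Cyp27a1, Cyp7b1, Baat and Slc27a5, the nuclear receptors Nr1h4 (FXR) and Nr0b2 (SHP), and the receptor pair Fgfr4 and Klb. The members were found by their symbols, and all 10 were present among the 55488 genes of the files. The study crossed mice with floxed Yap, floxed Taz or both to mice with an albumin-regulated Cre, which deletes the alleles in hepatocytes (HCs) and biliary epithelial cells (BECs). The 4 groups are the wild type (WT), the YAP knock-out (YAPKO), the TAZ knock-out (TAZKO) and the double knock-out (DKO), all without treatment. HCs and non-parenchymal cells of 1 mouse per genotype were isolated separately, mixed, and made into 1 library of 10x Genomics 3′ tags. The age of the sequenced mice and the hour at which each liver was taken are not given in the sources used here. With 1 library per genotype there are no replicates, no test between genotypes was possible, and every difference below is a difference between 2 mice as well as between 2 genotypes.

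The deposited tables held 66259687 unique molecular identifiers (UMIs) in WT, 85989454 in YAPKO, 49022089 in TAZKO and 77411746 in DKO. Barcodes with 500 to 6000 genes and at most 10% mitochondrial UMIs were kept, 30362 in all. A kept barcode was called a hepatocyte where Alb, Apoa1, Ttr and Apoc3 together made up at least 3% of its UMIs, which gave 2254 hepatocytes in WT, 1159 in YAPKO, 3112 in TAZKO and 2925 in DKO. Depth differed between the libraries, with a median of 2166.5 UMIs per hepatocyte in WT, 6457 in YAPKO, 1854.5 in TAZKO and 6475 in DKO. Just above the 3% gate, at 3 to 3.5%, lay 21, 37, 80 and 133 barcodes of WT, YAPKO, TAZKO and DKO, and just below it, at 2.5 to 3%, lay 31, 30, 74 and 117. Between 9 and 26 kept barcodes, and 0 to 5 hepatocytes, carried the same barcode sequence in both libraries of a pair. Transcripts of Y-linked genes were present in all 4 libraries (8344 UMIs in WT, 10871 in YAPKO, 10004 in TAZKO, 11834 in DKO), and Xist had at most 8 UMIs in a library. The libraries therefore do not differ in this sign of sex, which matters for Cyp7b1, known to be higher in male mouse liver.

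The hepatocyte label was checked on genes that the gate did not use. Hnf4a, Cps1, Tdo2, Hpx, Serpina1c and Ass1 were each over 10 times higher in the hepatocytes than in the other kept cells of the same library. These ratios show hepatocyte RNA in the gated barcodes. They cannot tell whether a barcode held a whole cell, because any barcode with hepatocyte RNA would give them. Of the barcodes left out for too few genes, 94.1% in WT, 74.7% in YAPKO, 87.6% in TAZKO and 63.9% in DKO also reached the 3% gate. Markers of other cell types were low but present in the hepatocytes, and no doublet caller was run; 246 hepatocytes of WT, 236 of YAPKO, 360 of TAZKO and 551 of DKO carried markers of another type. The BEC list of 6 markers summed to 115 UMIs per 1000000 (CPM) in WT hepatocytes, 268 in YAPKO, 119.8 in TAZKO and 516 in DKO. Most of this was Tstd1 in each library (102, 251, 83.4 and 493 CPM), while Krt7 was at 0 in TAZKO and Krt19 at 0 in DKO. The endothelial cell (EC) list summed to 90.0, 77.0, 175 and 80.7 CPM, led by Clec4g or Ptprb. Without the marked cells every member kept its side of the 2-fold limit in every comparison.

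Bile acids are made from cholesterol in hepatocytes. The classic route starts with CYP7A1, the rate-limiting enzyme, and CYP8B1 then sets how much cholic acid is formed; the alternative route starts with CYP27A1 and goes on through CYP7B1. SLC27A5 activates bile acids with coenzyme A and BAAT joins them to taurine or glycine. Bile acids feed back through FXR, which induces SHP in the liver and FGF15 in the gut, and FGF15 acts on hepatocytes through FGFR4 with its co-receptor KLB; both arms lower Cyp7a1. In the lobule, Cyp7a1 is known as a gene of the pericentral hepatocytes, and its transcript is known to cycle through the day, with DBP of the circadian clock among its activators.

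The knock-outs were checked first. Yap1 stood at 21.2 CPM in WT hepatocytes, 4.55 in YAPKO, 46.3 in TAZKO and 4.67 in DKO. Wwtr1, the gene of TAZ, stood at 5.58 CPM in WT, 13.5 in YAPKO, 3.34 in TAZKO and 2.89 in DKO. Each gene was thus lowest in the libraries whose label names its loss, and Yap1 was higher in TAZKO and Wwtr1 in YAPKO than in WT. The 3′ tags lie at the end of the transcript and do not show whether the floxed exons are gone, so what remains is not a measure of deletion.

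Hepatocyte levels are given as UMIs of a gene per 1000000 UMIs (CPM), summed over the hepatocytes of a library, with exact 95% Poisson intervals that cover counting error only. Levels are compared between libraries for the same gene, never between genes. Cyp7a1 (chromosome 4, GRCm38) was at 4.54 CPM in WT (3.63 to 5.60), 9.88 in YAPKO (8.44 to 11.5), 79.7 in TAZKO (75.2 to 84.5) and 29.0 in DKO (27.2 to 31.0). The 4 intervals do not overlap, and the rate-limiting enzyme was highest in the libraries that lack TAZ. Cyp8b1 followed another order, with 164 CPM in WT (159 to 170.3), 179.8 in YAPKO (173 to 186), 279 in TAZKO (270.2 to 288) and 32.4 in DKO (30.4 to 34.5). DKO alone stood low for this gene.

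The alternative route differed as well. Cyp27a1 was at 74.3 CPM in WT (70.5 to 78.3), 79.4 in YAPKO (75.2 to 83.8), 124 in TAZKO (118 to 129.6) and 55.1 in DKO (52.6 to 57.8), with WT and YAPKO not apart beyond their intervals. Cyp7b1 was highest in WT, at 388 CPM (379 to 397), and stood at 203 in YAPKO (197 to 210.2), 225 in TAZKO (218 to 233) and 67.2 in DKO (64.4 to 70.1). Every knock-out library was below WT for Cyp7b1. Slc27a5 was at 292 CPM in WT, 225 in YAPKO, 338 in TAZKO and 150.2 in DKO, and Baat at 144 CPM in WT, 181 in YAPKO, 230.0 in TAZKO and 149 in DKO. The intervals of Baat in WT (139 to 149.7) and DKO (145 to 153) overlap.

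Among the regulators, Nr1h4 was lowest in WT, at 32.5 CPM (30.0 to 35.2), and stood at 50.9 in YAPKO (47.6 to 54.4), 73.5 in TAZKO (69.1 to 78.0) and 66.4 in DKO (63.6 to 69.3), the last pair of intervals overlapping. Nr0b2, a target of FXR, was highest in WT, at 71.5 CPM (67.8 to 75.4), with 39.6 in YAPKO (36.6 to 42.7), 52.4 in TAZKO (48.7 to 56.3) and 57.5 in DKO (54.9 to 60.3). Receptor and target thus stood in opposite order in WT against each knock-out. Fgfr4 ranged from 5.68 CPM in WT to 9.18 in TAZKO and Klb from 5.09 in YAPKO to 8.91 in TAZKO, on 86 to 235 UMIs per library. At these counts most intervals of Fgfr4 and Klb overlap.

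**Figure D1:**
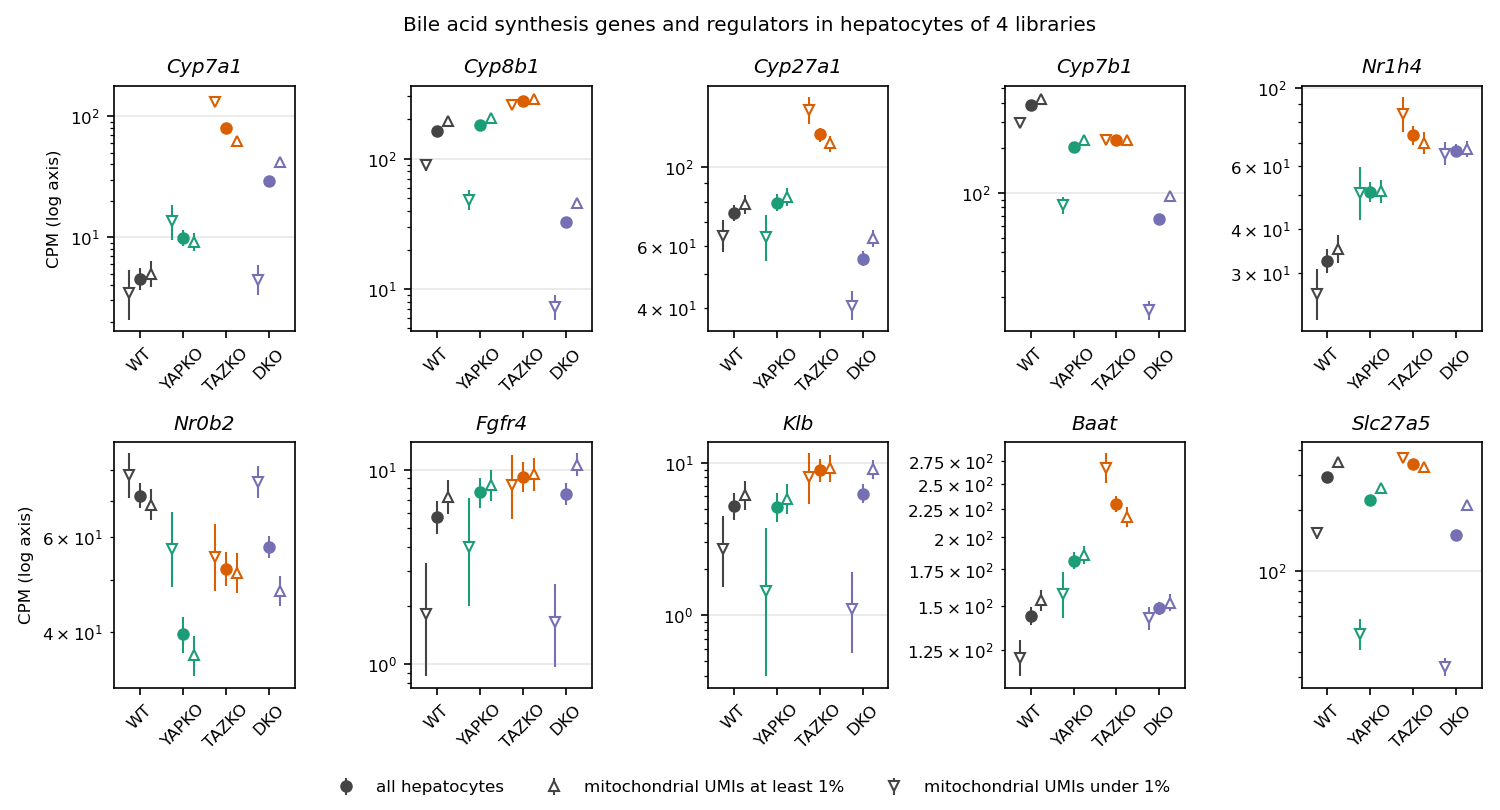
Level of each of the 10 genes (CPM, log axis) in the hepatocytes of the 4 libraries; filled circles are all hepatocytes, triangles pointing up are hepatocytes with at least 1% mitochondrial UMIs, triangles pointing down those under 1%, and bars are exact 95% Poisson intervals. Cyp7a1 runs from 4.54 CPM in WT to 79.7 in TAZKO, and Cyp8b1 and Cyp7b1 are lowest in DKO, most of all in its cells under 1%.

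Ratios between libraries were taken over all 11284 genes with at least 100 UMIs in the hepatocytes together. The median gene was higher in each knock-out than in WT on the log2 scale, by 0.40 in YAPKO, 0.62 in TAZKO and 0.46 in DKO, and by 0.07 in DKO against YAPKO. Mup20 alone took 74485 CPM in WT, 42639 in YAPKO, 7018 in TAZKO and 41688 in DKO; its part in the shift was not tested. All ratios below are relative to that median, and a gene is counted where its centred log2 ratio is at least 1 in size, a 2-fold difference. Intervals of ratios are exact conditional binomial intervals. The 3 comparisons with WT share the WT library, so they are not independent of each other.

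In YAPKO against WT, which asks what the loss of YAP alone goes with, 0 of 10 members were at least 2-fold higher (2.60% of all tested genes were) and 2 were at least 2-fold lower (2.31% of all). These were Cyp7b1, with a centred log2 ratio of -1.33 (-1.39 to -1.27), and Nr0b2, at -1.25 (-1.39 to -1.12). Relative to the median gene, WT held 2.52 times the Cyp7b1 and 2.38 times the Nr0b2 of YAPKO. In CPM Cyp7b1 was at 388 against 203, and Nr0b2 at 71.5 against 39.6. Cyp7a1 had a ratio of 0.72 (0.34 to 1.11), and the median over the members was -0.29 against 0.00 over all tested genes. Without centring the split turned to 1 higher (Cyp7a1, 1.12) and 0 lower, with 7.25% of all genes higher and 0.966% lower, as Cyp7b1 came to -0.93 and Nr0b2 to -0.85. Nr0b2 also missed the limit among hepatocytes under 1% mitochondrial UMIs (-0.98), and 5 members passed it there, 1 higher and 4 lower (4.40% and 8.19% of all genes).

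In TAZKO against WT, 1 of 10 members was at least 2-fold higher (5.10% of all tested genes) and 2 were at least 2-fold lower (6.60% of all). Cyp7a1 was 11.4-fold higher, with a centred log2 ratio of 3.51 (3.20 to 3.85). Cyp7b1 was lower, at -1.40 (-1.46 to -1.35), and so was Nr0b2, at -1.07 (-1.20 to -0.94). The 7 others lay between -0.41 for Slc27a5 and 0.55 for Nr1h4. The median over the members was 0.09. Without centring the split was 2 higher, Cyp7a1 and Nr1h4 (1.18), and 0 lower, with 24.0% of all genes higher and 1.67% lower. Nr0b2 sat close to the limit and lost its call in 6 of 11 alternative settings, and Cyp7b1 missed it without centring (-0.78) and with a hepatocyte gate of 10% (-0.93).

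In DKO against WT, 1 of 10 members was at least 2-fold higher (5.30% of all tested genes) and 3 were at least 2-fold lower (4.58% of all). Cyp7a1 was 4.66-fold higher, with a centred log2 ratio of 2.22 (1.90 to 2.56). Lower were Cyp7b1, at -2.98 (-3.05 to -2.91), Cyp8b1, at -2.80 (-2.90 to -2.70), and Slc27a5, at -1.42 (-1.47 to -1.36). Relative to the median gene, WT thus held 7.91 times the Cyp7b1 and 6.96 times the Cyp8b1 of DKO, while Cyp7a1 differed in the opposite direction. In CPM Cyp7b1 was at 388 in WT against 67.2 in DKO, and Cyp8b1 at 164 against 32.4. The median over the members was -0.59. Without centring 2 members were higher, Cyp7a1 and Nr1h4 (1.03), and 2 were lower, with 13.2% of all genes higher and 2.10% lower, as Slc27a5 came to -0.96. With the limits of 500 to 6000 read as UMIs, the Cyp7a1 ratio was 0.77. With a gate of 10% the ratio of Slc27a5 was -0.73. The Cyp7a1 ratio was 4.29 at that gate, above the 2.19 of TAZKO there. These rest on 59 Cyp7a1 UMIs in DKO, 11 in TAZKO and 4 in WT.

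DKO against YAPKO shows the further loss of TAZ where YAP is already absent. Here 1 of 10 members was at least 2-fold higher (3.71% of all tested genes) and 2 were at least 2-fold lower (3.70% of all). Cyp7a1 had a centred log2 ratio of 1.48 (1.24 to 1.73), Cyp8b1 of -2.55 (-2.65 to -2.44) and Cyp7b1 of -1.67 (-1.75 to -1.59). Nr0b2 did not pass the limit, at 0.47 (0.34 to 0.60). The Cyp7a1 call was lost where each cell was weighted equally (0.61) and where the limits were read as UMIs (-0.12), and that of Cyp7b1 with a gate of 10% (0.06). At that gate the Cyp7a1 ratio was 3.65, on 59 UMIs in DKO and 4 in YAPKO. Fgfr4, Klb, Baat, Cyp27a1 and Nr1h4 stayed within 2-fold in all 4 comparisons on the centred scale, and without centring in all but the values of Nr1h4 given above. Of these 5 genes, Baat stayed within 2-fold in all 11 alternatives too, while Cyp27a1 in DKO against WT, at -0.89, reached -1.30 among cells under 1% mitochondrial UMIs. In the same cells Klb reached -1.95 in DKO against WT, and Fgfr4 1.29 in TAZKO against WT and -1.37 in DKO against YAPKO. With the limits read as UMIs, Klb reached -2.00 in YAPKO against WT. Nr1h4 in DKO against WT reached 1.03 with a gate of 10%.

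**Figure D2:**
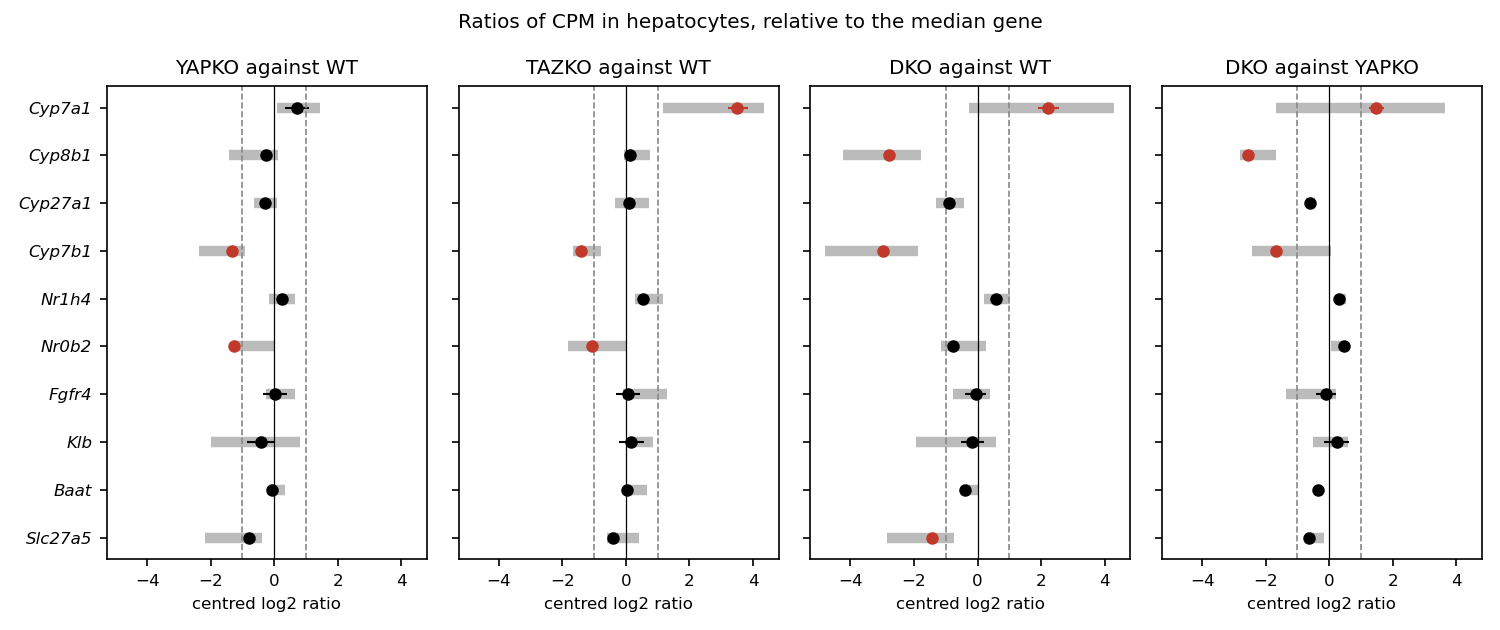
Centred log2 ratio of each gene in the hepatocytes for 4 comparisons; points are the values with exact 95% intervals, red where past 2-fold (dashed lines), and grey bands run from the lowest to the highest value over 11 alternative settings. Cyp7a1 in TAZKO against WT (3.51), Cyp8b1 and Cyp7b1 in DKO against WT (-2.80, -2.98) and Cyp8b1 in DKO against YAPKO (-2.55) have bands that stay past the limit.

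Of the members, 6 of 10 had an entry in the RefSeq promoter table, which holds 250 bases before and 50 after the start site. Promoters are shown for Cyp8b1, low in DKO, and Nr0b2, lower in both single knock-outs than in WT, with letters known from the factors that control bile acid genes. The letters searched on both strands were CAAAGTCCA, a core of HNF4A sites, TCAAGG, a core of sites of LRH-1 (NR5A2), and TATAAA, the TATA box core. Capitals mark the HNF4A core in Cyp8b1 (chr9:121916256-121916555, minus strand) and the LRH-1 cores in Nr0b2 (chr4:133553126-133553425, plus strand), both in GRCm38.p6 and printed 5′ to 3′.
Cyp8b1: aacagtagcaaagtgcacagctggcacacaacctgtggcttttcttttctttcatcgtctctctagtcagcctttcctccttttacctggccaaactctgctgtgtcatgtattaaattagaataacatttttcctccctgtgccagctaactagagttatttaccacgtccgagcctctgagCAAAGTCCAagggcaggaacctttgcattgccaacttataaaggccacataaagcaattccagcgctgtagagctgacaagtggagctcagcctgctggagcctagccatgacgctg
Nr0b2: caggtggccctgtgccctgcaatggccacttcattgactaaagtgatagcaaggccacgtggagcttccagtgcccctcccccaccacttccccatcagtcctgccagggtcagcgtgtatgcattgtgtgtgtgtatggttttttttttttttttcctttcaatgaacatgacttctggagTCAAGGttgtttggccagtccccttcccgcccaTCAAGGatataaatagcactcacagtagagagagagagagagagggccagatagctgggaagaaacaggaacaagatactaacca
The HNF4A core starts at base 184 of the Cyp8b1 window, -67 from the start site, and 0.475% of the 32851 promoters in the table hold these letters. The LRH-1 cores start at bases 183 and 216 of the Nr0b2 window, -68 and -35 from the start site, and 14.4% of promoters hold at least 1 of them. TATAAA, in 13.6% of promoters, starts at -31 in Cyp8b1 and -28 in Nr0b2, and overlaps neither. Of the 6 member promoters, those of Cyp27a1, Nr1h4, Fgfr4 and Klb held none of the searched cores. A match describes letters only. Hnf4a itself was at 129.7, 218, 247 and 149 CPM in WT, YAPKO, TAZKO and DKO, and Nr5a2 at 31.5, 58.7, 56.2 and 54.0 CPM. Both stayed within 2-fold in all 4 comparisons after centring, with Hnf4a in DKO at -0.26 (-0.33 to -0.18) against WT and -0.62 (-0.68 to -0.56) against YAPKO.

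Position in the lobule moved with the first of the enzymes. Hepatocytes with at least 10 UMIs of 7 pericentral and 7 periportal genes were placed by the pericentral share of these UMIs, which was possible for 25.1% of hepatocytes in WT, 64.5% in YAPKO, 46.5% in TAZKO and 68.9% in DKO. Ranked in tertiles within each library, Cyp7a1 had 71 UMIs in the most pericentral tertile of WT and 0 in the most periportal tertile, an exact interval of 0 to 1.05 CPM. Cells with a share of 0% filled this tertile in WT and part of the middle tertile. The same tertiles held 148 and 3 UMIs in YAPKO, a log2 ratio of levels of 6.14 (4.57 to 8.44). In TAZKO the pericentral tertile was 16.3-fold above the periportal tertile, and in DKO 108-fold. Cyp7a1 was thus a pericentral transcript in every library. The other members were far flatter: outside DKO their folds ran from 0.663 (Fgfr4, TAZKO) to 1.91 (Cyp27a1, YAPKO), and in DKO Cyp8b1 reached 2.14 and Cyp27a1 2.29.

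The tertiles are not alike between libraries, since the median pericentral share of the most pericentral tertile was 10.0% in WT, 64.5% in YAPKO, 70.0% in TAZKO and 55.1% in DKO. Hepatocytes with a pericentral share of at least 50% made up 7.08% of the placed cells in WT, 18.2% in YAPKO, 57.7% in TAZKO and 19.2% in DKO. Over all hepatocytes the 7 pericentral genes were all lowest in WT, as Cyp7a1 was, but differed in where they were highest: Cyp2e1 (117, 203, 781 and 236 CPM in WT, YAPKO, TAZKO and DKO), Cyp1a2, Rgn and Cyp2c37 were highest in TAZKO, and Glul (27.4, 106, 32.7 and 41.6 CPM), Oat (2.92, 96.7, 74.0 and 80.2 CPM) and Slc1a2 in YAPKO. TAZKO, the library highest in Cyp7a1 at the 3% gate, also had among the 4 the most placed cells, in percent, with a pericentral share of at least 50%. This counts placed cells only, by a score that moves with the levels of the genes behind it. It is not the part of the liver that is pericentral. Cells were also grouped by fixed shares, a choice made after these values were seen.

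Among cells with a pericentral share of at least 50% (40, 136, 834 and 388 cells of WT, YAPKO, TAZKO and DKO), Cyp7a1 was at 67.0 CPM in WT (50.3 to 87.4), 83.2 in YAPKO (69.6 to 98.7), 186 in TAZKO (172 to 200.3) and 145 in DKO (133 to 156). Within these cells its centred log2 ratio to WT was 0.09 in YAPKO, 1.18 in TAZKO and 0.84 in DKO. In this group the TAZKO ratio was thus 1.18, against 3.51 over all hepatocytes, and the call for DKO was lost, also against YAPKO (0.78). Cyp8b1 was still low in DKO there, at 55.7 CPM against 249 in WT, 211 in YAPKO and 295 in TAZKO, and so was Cyp7b1, at 81.3 against 614, 346 and 235 CPM. Nr0b2 was at 38.5, 44.5, 48.9 and 56.3 CPM in WT, YAPKO, TAZKO and DKO, and neither of its calls held, with centred ratios of -0.02 in YAPKO and 0.05 in TAZKO against WT.

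At the other end, with a share under 10%, Cyp7a1 had 1 UMI over 466 cells of WT (0.0730 CPM), and levels of 1.21 CPM in YAPKO, 1.76 in TAZKO and 3.03 in DKO. Nr0b2 in these cells was at 70.6 CPM in WT, 37.2 in YAPKO, 60.6 in TAZKO and 59.1 in DKO, so the difference between WT and YAPKO lay in cells of lower pericentral share. Cells grouped by the same share were not alike in the genes behind it. At a share of at least 50%, Glul was at 69.5, 645, 65.5 and 135 CPM in WT, YAPKO, TAZKO and DKO, and Cyp2f2, on the periportal list, at 365, 167, 750.0 and 119 CPM. An equal share is therefore not taken as an equal place in the lobule.

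**Figure D3:**
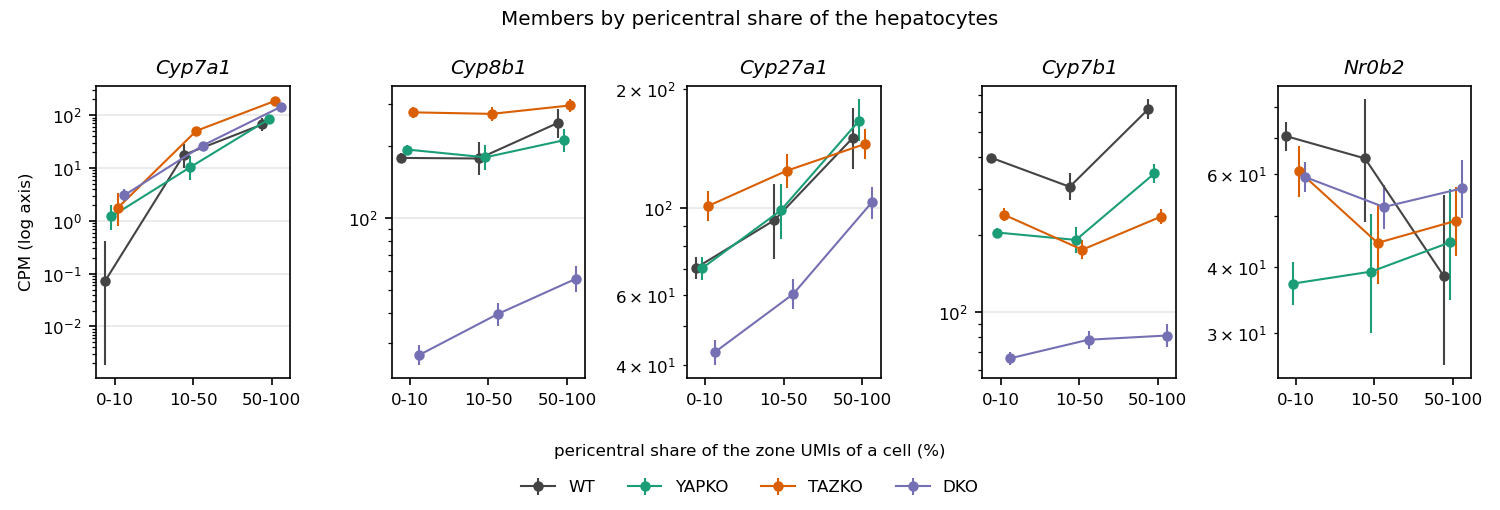
Level of 5 genes (CPM, log axis) in hepatocytes with a pericentral share of 0 to 10%, 10 to 50% and 50 to 100%; lines join the values of a library and bars are exact 95% Poisson intervals. Cyp7a1 climbs with the share in all 4 libraries, to 67.0 CPM in WT and 186 in TAZKO, while Cyp8b1 and Cyp7b1 of DKO lie below the other libraries at every share.

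Clock genes differed between the libraries, with most calls in DKO. The list of 13 was added after the values of the members and of clock genes were seen. Its counts, in every cell type below, are therefore a description. The shares of all genes beside them are no test of the list. Against WT, 6 were at least 2-fold higher and 3 lower in DKO (5.30% and 4.58% of all tested genes), 1 higher and 2 lower in TAZKO (5.10% and 6.60%), and 2 higher and 0 lower in YAPKO (2.60% and 2.31%). Without centring these splits were 8 and 2 in DKO (13.2% and 2.10% of all), 5 and 0 in TAZKO (24.0% and 1.67%), and 5 and 0 in YAPKO (7.25% and 0.966%). DKO against YAPKO had 5 of the 13 higher and 3 lower (3.71% and 3.70%), and the same genes passed without centring (4.37% and 3.21%). Dbp was at 5.94 CPM in WT hepatocytes, 12.7 in YAPKO, 3.55 in TAZKO and 132 in DKO, a centred log2 ratio of 4.01 (3.74 to 4.29) for DKO against WT. Arntl (BMAL1), whose transcript peaks in the opposite phase, was at 8.34, 15.2, 22.4 and 1.14 CPM, a ratio of -3.32 (-3.89 to -2.79). Per3 and Ciart were higher in DKO than in WT too, with ratios of 3.71 and 3.49, and Npas2, a partner of BMAL1, had 3 UMIs in DKO and 28 in WT, a ratio of -4.39 (-6.75 to -2.70). Hlf, Nr1d1, Nr1d2 and Cry1 stayed within 2-fold in DKO against WT. In TAZKO against WT the ratios past 2-fold were 1.30 for Per2, -1.37 for Dbp and -1.01 for Ciart, the latter on 8 and 14 UMIs (-0.74 and -0.39 without centring), and in YAPKO 1.76 for Ciart and 1.19 for Per3.

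The difference between DKO and WT was also found in ECs, which are outside the HCs and BECs that the albumin-regulated Cre targets. Dbp was at 9.15 CPM in ECs of WT, 26.0 in YAPKO, 16.8 in TAZKO and 94.1 in DKO, where hepatocyte RNA in these barcodes would give 3.49. Arntl was at 36.1, 29.1, 37.3 and 11.4 CPM in the same order. Of 11 clock genes tested in ECs, 7 were higher in DKO than in WT (5.28% of all genes tested there) and 1 was lower (3.59%), 3 were higher and 0 lower in TAZKO (3.25% and 4.34%), and 3 higher and 1 lower in YAPKO (3.78% and 3.85%). Without centring these splits were 8 and 1 (5.77% and 3.19%), 5 and 0 (4.96% and 2.81%), and 3 and 1 (3.98% and 3.67%). DKO against YAPKO had 6 higher and 1 lower in ECs (3.28% and 1.91%), also without centring (3.49% and 1.82%). In Kupffer cells (KCs) 2 of 9 were higher (2.19%) and 1 was lower (3.27%) in DKO. In TAZKO 0 passed (3.57% and 7.18%), and in YAPKO 2 were higher and 0 lower (0.864% and 2.26%). Without centring these splits were 2 and 1 (2.22% and 3.21%), 2 and 0 (6.24% and 4.19%), and 1 and 0 (0.747% and 2.58%). DKO against YAPKO had 1 higher and 1 lower in KCs (2.87% and 1.88%), also without centring (3.21% and 1.68%). Dbp in KCs was at 3.01, 4.57, 2.84 and 11.5 CPM, with 2.23 from hepatocyte RNA in DKO, while Arntl, at 19.8, 14.3, 31.3 and 17.4 CPM, had an interval in DKO that overlaps those of WT and YAPKO. In T cells 1 of 5 was higher in DKO, Cry1 (3.07%), and 0 were lower (2.62%). In TAZKO (6.09% and 4.63%) and in YAPKO (1.39% and 2.31%) 0 passed. Without centring Cry1 was higher in TAZKO (9.01% and 3.16%) as well as in DKO (4.70% and 1.91%), and 0 passed in YAPKO (1.63% and 2.15%). DKO against YAPKO had 0 past the limit in T cells (1.99% and 1.59%), also without centring (2.78% and 1.20%). Dbp in T cells was at 14.2, 15.0, 11.0 and 15.0 CPM. Hour of collection, clock state and genotype cannot be told apart with 1 liver each. This holds for the member differences of all 4 comparisons, Cyp7a1 in TAZKO included.

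**Figure D4:**
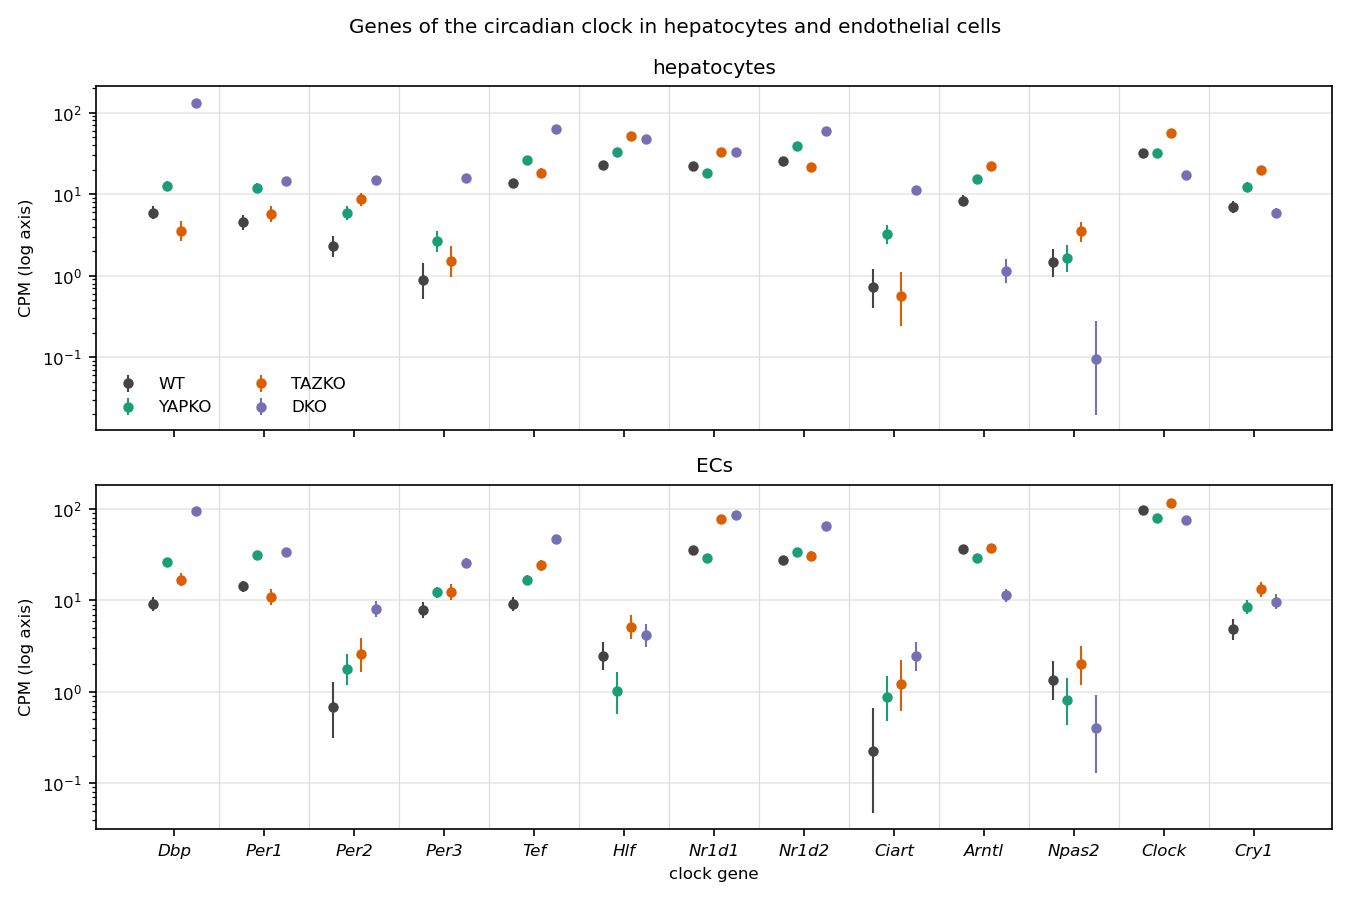
Level of 13 clock genes (CPM, log axis) in hepatocytes and in ECs of the 4 libraries, with exact 95% Poisson intervals. DKO lies highest for Dbp (132 CPM in hepatocytes, 94.1 in ECs) and lowest for Arntl (1.14 and 11.4) in both cell types.

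The share of mitochondrial UMIs split the hepatocytes into groups that differed in the members, a split also made after the data were seen. Hepatocytes under 1% were 76.0% of cells in WT, 49.4% in YAPKO, 55.9% in TAZKO and 62.2% in DKO, with a median mitochondrial share of 0.0962%, 0.114%, 0.192% and 0.0859%. They gave 28.9%, 16.3%, 25.1% and 35.0% of the hepatocyte UMIs. In DKO these cells held 4.46 CPM of Cyp7a1 against 42.2 in the cells at or above 1%, 7.28 against 45.9 CPM of Cyp8b1, and 33.5 against 213 CPM of Slc27a5. Malat1, a nuclear RNA, was also lower in them, at 741 against 4995 CPM. Nr0b2 went the other way in DKO, at 76.0 against 47.7 CPM. The median gene was itself lower in the cells under 1%, by a log2 ratio of -0.57 in WT, -0.41 in YAPKO, -0.03 in TAZKO and -0.47 in DKO. Relative to it the DKO ratios were -2.78 for Cyp7a1, -2.19 for Cyp8b1, -2.20 for Slc27a5, -2.28 for Malat1 and 1.14 for Nr0b2. Cyp7b1 (-2.07), Fgfr4 (-2.23) and Klb (-2.58) were lower in DKO too, while Cyp27a1, Nr1h4 and Baat were within 2-fold.

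In WT the levels of Cyp8b1 (88.6 against 195 CPM), Slc27a5 (154 against 348) and Malat1 (2038 against 3494) were lower too, but within 2-fold relative to the median gene (-0.56, -0.60 and -0.20), with Cyp7a1 at 3.43 CPM (2.06 to 5.35) against 4.99 (3.87 to 6.32). Fgfr4 alone among the members was past 2-fold in WT, at -1.43, on 10 and 99 UMIs. In YAPKO the cells under 1% were lower in Cyp8b1 (48.4 against 205 CPM), Slc27a5 (48.7 against 259) and Malat1 (897 against 3697), at -1.67, -2.00 and -1.63 relative to the median gene, but not in Cyp7a1, at 13.5 CPM (9.47 to 18.5) against 9.18 (7.67 to 10.9). Relative to the median gene, Cyp7b1 (-1.04) and Klb (-1.58, on 4 and 82 UMIs) were also lower in YAPKO, and Nr0b2 was higher (1.07). TAZKO held 131 CPM of Cyp7a1 under 1% and 62.5 at or above it, and Malat1 at 7189 and 6039.5 CPM. Relative to the median gene Cyp7a1 was at 1.10 in TAZKO, and no other member was past 2-fold there. Among cells under 1% alone, the Cyp7a1 call of DKO against WT was lost, with levels of 4.46 CPM (3.30 to 5.89) and 3.43 (2.06 to 5.35) that overlap and a centred ratio of -0.27, and that against YAPKO was reversed, at -1.68. Among cells at or above 1%, 2 members were past 2-fold in YAPKO against WT (2.59% of all genes higher and 1.44% lower), 2 in TAZKO (5.83% and 3.78%), 4 in DKO (5.78% and 3.73%) and 3 in DKO against YAPKO (3.48% and 3.02%). What the cells under 1% are was not tested.

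The pathway around the members was read from a list of 33 further genes, of which 26 were tested. Hsd3b7, Cyp46a1, Ch25h, Fgf15, Gpbar1, Vdr and Slc51a had too few UMIs. Against WT, 0 of 26 were past 2-fold in YAPKO (2.60% of all tested genes were higher and 2.31% lower), 2 were higher and 1 lower in TAZKO (5.10% and 6.60%), and 2 higher and 3 lower in DKO (5.30% and 4.58%). Without centring 2 were higher in YAPKO, Prox1 (1.17) and Abcb4 (1.09), and 0 lower (7.25% and 0.966% of all); 5 were higher and 1 lower in TAZKO (24.0% and 1.67%), and 6 higher and 2 lower in DKO (13.2% and 2.10%). Of the 10 other enzymes tested, 0 passed in TAZKO and 3 were lower in DKO: Acox2, which shortens the side chain, at -1.65, Cyp2c70, which makes muricholic acids in mice, at -1.54, and Cyp39a1, an oxysterol hydroxylase, at -1.22. Without centring Cyp39a1 came to -0.76, and Akr1d1 and Akr1c6 passed as higher in TAZKO (1.61 and 1.34) and in DKO (1.20 and 1.39). Of 13 regulators tested, Nr1i3 (CAR) and Prox1 were higher in TAZKO, at 2.72 and 1.44, and in DKO, at 1.58 and 1.07, and 0 were lower; without centring Cebpa in TAZKO (1.05) and Nr1i2 in DKO (1.04) passed as well. Prox1 encodes a known co-repressor of Cyp7a1, and it stood at 47.0, 106, 196 and 135 CPM in WT, YAPKO, TAZKO and DKO, higher where Cyp7a1 was higher. Of 3 transporters tested, Slc51b, an FXR target, was lower in TAZKO, at -2.54 (-3.29 to -1.86) on 21 UMIs, and at 0.25 in DKO; without centring Abcb4 was higher in DKO (1.40). Abcb11, the bile salt export pump and also an FXR target, was within 2-fold in all 4 comparisons, at 0.01 in YAPKO, 0.01 in TAZKO and -0.65 in DKO against WT, and -0.68 in DKO against YAPKO.

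In DKO against YAPKO (3.71% of all tested genes higher, 3.70% lower), 1 of the 10 other enzymes was higher, Akr1c6 at 1.20, and 2 were lower, Acox2 at -1.18 and Cyp39a1 at -1.13. Nr1i3 was the 1 regulator past the limit, at 1.48, and 0 of the transporters passed; without centring the same genes passed. The medians of the other enzymes were -0.24, -0.23 and -0.56 against WT in YAPKO, TAZKO and DKO, and those of the regulators 0.24, 0.21 and 0.28, beside 0.00 over all tested genes.

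Cell by cell, Cyp7a1 was sparse. At least 1 UMI was found in 1.60% of WT hepatocytes (1.12 to 2.20, Clopper-Pearson), 4.49% in YAPKO (3.37 to 5.84), 21.1% in TAZKO (19.7 to 22.6) and 8.24% in DKO (7.27 to 9.30). B cells, which should lack it, had a UMI in 0 of 417 cells in WT (a 0 allows up to 0.719%), 0.231% in YAPKO, 3.69% in TAZKO and 0.323% in DKO, at median depths of 2923, 2867.5, 2789 and 2139.5 UMIs. With each barcode thinned to 2000 UMIs, and 935, 144, 1679 and 334 shallower hepatocytes left out, the shares were 1.21%, 1.87%, 15.5% and 3.01%. TAZKO stayed highest at equal depth. The highest count in a cell was 10 in WT, 12 in YAPKO, 56 in TAZKO and 38 in DKO. The richest 5% of hepatocytes held 56.4% of the Cyp7a1 UMIs in TAZKO and 89.7% in DKO. They held 100% in WT and YAPKO, where under 5% of cells had a UMI. This value follows the share of cells with a UMI and is not read further. In the thinned cells Cyp8b1 was found in 19.3% of WT, 19.7% of YAPKO, 39.0% of TAZKO and 4.67% of DKO hepatocytes, and Nr0b2 in 13.6%, 9.46%, 9.21% and 12.1%.

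The genes most like 3 of the members were sought over 12 units, the 3 tertiles of the 4 libraries, among 7916 genes. These units share their libraries and cells, and the values are a description. For Cyp7a1 the closest were Lect2 and Cyp2c54 (Pearson r = 0.98 each) and Slco1b2 (0.97). For Cyp8b1 they were Agpat2 (0.97), Arntl (0.96) and Slc45a3 (0.96), so a clock gene stood among its nearest. Nr0b2 had looser neighbours in Gstp1 (0.87), Onecut1 (0.85) and Ndufa5 (0.82).

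Outside the hepatocytes lay 20912 other kept barcodes, and those that met the marker rule were sorted into 10 types. The rest stayed unassigned: 513 barcodes in WT, 710 in YAPKO, 741 in TAZKO and 1019 in DKO. Levels were set against the level that hepatocyte RNA alone would give, from 6 abundant hepatocyte genes in the same barcodes. B cells show how well this works: over the 10 members their median ratio to that level was 0.997 in WT, 1.22 in YAPKO, 1.66 in TAZKO and 1.17 in DKO, with single ratios up to 4.89 (Cyp27a1 in DKO, on 8 UMIs). Ratios of that size elsewhere are not read as expression. Cyp7a1, Slc27a5 and Klb had intervals above the hepatocyte background of all 4 libraries in none of the 10 types, and Baat in ECs alone, at 1.31 to 1.64 times it. Fgfr4 was above it in BECs of all 4 libraries, on 15 UMIs in total. The unassigned barcodes of WT held 29 Cyp7a1 UMIs, at 6.06 CPM (4.06 to 8.70), beside 4.54 CPM in WT hepatocytes. That was 32.2 times the background, against 1.92, 2.72 and 0.787 times in YAPKO, TAZKO and DKO. Cyp27a1, Nr1h4 and Nr0b2 were above it in the unassigned barcodes of every library. What the unassigned barcodes are was not tested.

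In HSCs, the stellate cells, Nr1h4 was at 138 CPM in WT (116 to 163), 98.8 in YAPKO (72.9 to 131), 159.7 in TAZKO (129.8 to 194) and 102 in DKO (78.0 to 130.5). These levels were 58.1 to 274 times what hepatocyte RNA would give, and above the hepatocyte level of the same gene in every library. FXR transcript was thus richer per UMI in stellate cells than in hepatocytes of all 4 livers. Nr0b2 gave 0 UMIs in HSCs of WT and YAPKO, 1 in TAZKO and 2 in DKO, so its level there was not above background. In BECs, with 17 to 26 cells per library, Nr0b2 was at 133 CPM in WT (86.9 to 195), 56.6 in YAPKO (34.0 to 88.3), 50.2 in TAZKO (23.0 to 95.4) and 43.2 in DKO (18.6 to 85.1). The hepatocyte background of BECs was 6.92, 3.44, 10.3 and 24.7 CPM, so DKO was not above it and TAZKO, at 4.86 times, was within the B cell range. Nr1h4 in BECs was at 10.2, 32.7, 78.2 and 97.2 CPM, on 2, 11, 14 and 18 UMIs. Its background was 3.15, 4.43, 14.5 and 28.6, so it was past the B cell range in YAPKO and TAZKO (7.40 and 5.39 times). The abundant hepatocyte genes in BEC barcodes stood at 9.68%, 8.69%, 19.8% and 43.0% of their hepatocyte level. The order of the libraries in BECs is therefore not read for either gene.

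Cyp27a1 was the member with the widest reach. KCs held 22.1 CPM in WT, 26.6 in YAPKO, 31.1 in TAZKO and 29.2 in DKO, between 7.95 and 48.8 times the hepatocyte background. Monocytes and macrophages held 25.9, 43.3, 46.3 and 44.5 CPM, at 12.6, 63.6, 11.2 and 69.6 times their background. Dendritic cells held 74.1, 53.1, 29.2 and 36.9 CPM, at 42.2, 53.5, 6.10 and 34.7 times. Their make-up differed: cells led by the markers Siglech and Ccr9 numbered 9 in WT, 17 in YAPKO, 79 in TAZKO and 146 in DKO. These held 18.0, 27.4, 26.7 and 15.4 CPM of Cyp27a1. Cells led by Xcr1 and Clec9a held 89.9, 58.7, 32.1 and 58.3 CPM, and cells led by Cd209a 49.8, 56.0, 31.3 and 61.9 CPM. The low Cyp27a1 of DKO hepatocytes thus had no counterpart in KCs, where the interval of DKO (25.7 to 33.1) overlaps that of TAZKO (27.1 to 35.5). HSCs held 15.8, 30.9, 19.4 and 18.1 CPM of Cyp27a1, 7.95, 54.9, 4.18 and 25.7 times their background, with TAZKO within the B cell range. Cyp7b1 in ECs was at 25.2 CPM in WT, 13.7 in YAPKO, 19.9 in TAZKO and 7.05 in DKO. These levels were 1.43, 5.78, 1.80 and 3.95 times the background, past the B cell range in YAPKO alone. In HSCs Cyp7b1 was past it in YAPKO and DKO (14.3 and 13.4 times, on 10 and 7 UMIs). ECs were also past it for Cyp27a1 in YAPKO and DKO (8.38 and 6.46 times) and for Nr1h4 in YAPKO (5.63 times).

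Cyp8b1 was past the B cell range in dendritic cells of WT, YAPKO and DKO and not of TAZKO, at 59.2 CPM in WT (38.0 to 88.1), 15.6 in YAPKO (8.74 to 25.8), 28.0 in TAZKO (17.9 to 41.7) and 13.8 in DKO (8.56 to 21.1), against a background of 3.88, 2.25, 10.8 and 0.625. The ratios to it were 15.3, 6.95, 2.60 and 22.1. Split after the fact by leading marker, cells led by Xcr1 and Clec9a, the markers of cross-presenting dendritic cells, carried it in 8 of 16 cells in WT, 9 of 27 in YAPKO, 6 of 23 in TAZKO and 15 of 34 in DKO. Cells led by Cd209a had 1 UMI over the 4 libraries, in YAPKO. Cells led by Siglech and Ccr9 had 0 UMIs in WT, YAPKO and DKO, and 12 of the 24 UMIs in TAZKO. In DKO, 34 such dendritic cells led by Xcr1 and Clec9a held 47.1 CPM (29.1 to 71.9), not below the 32.4 CPM of the hepatocytes of that liver.

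**Figure D5:**
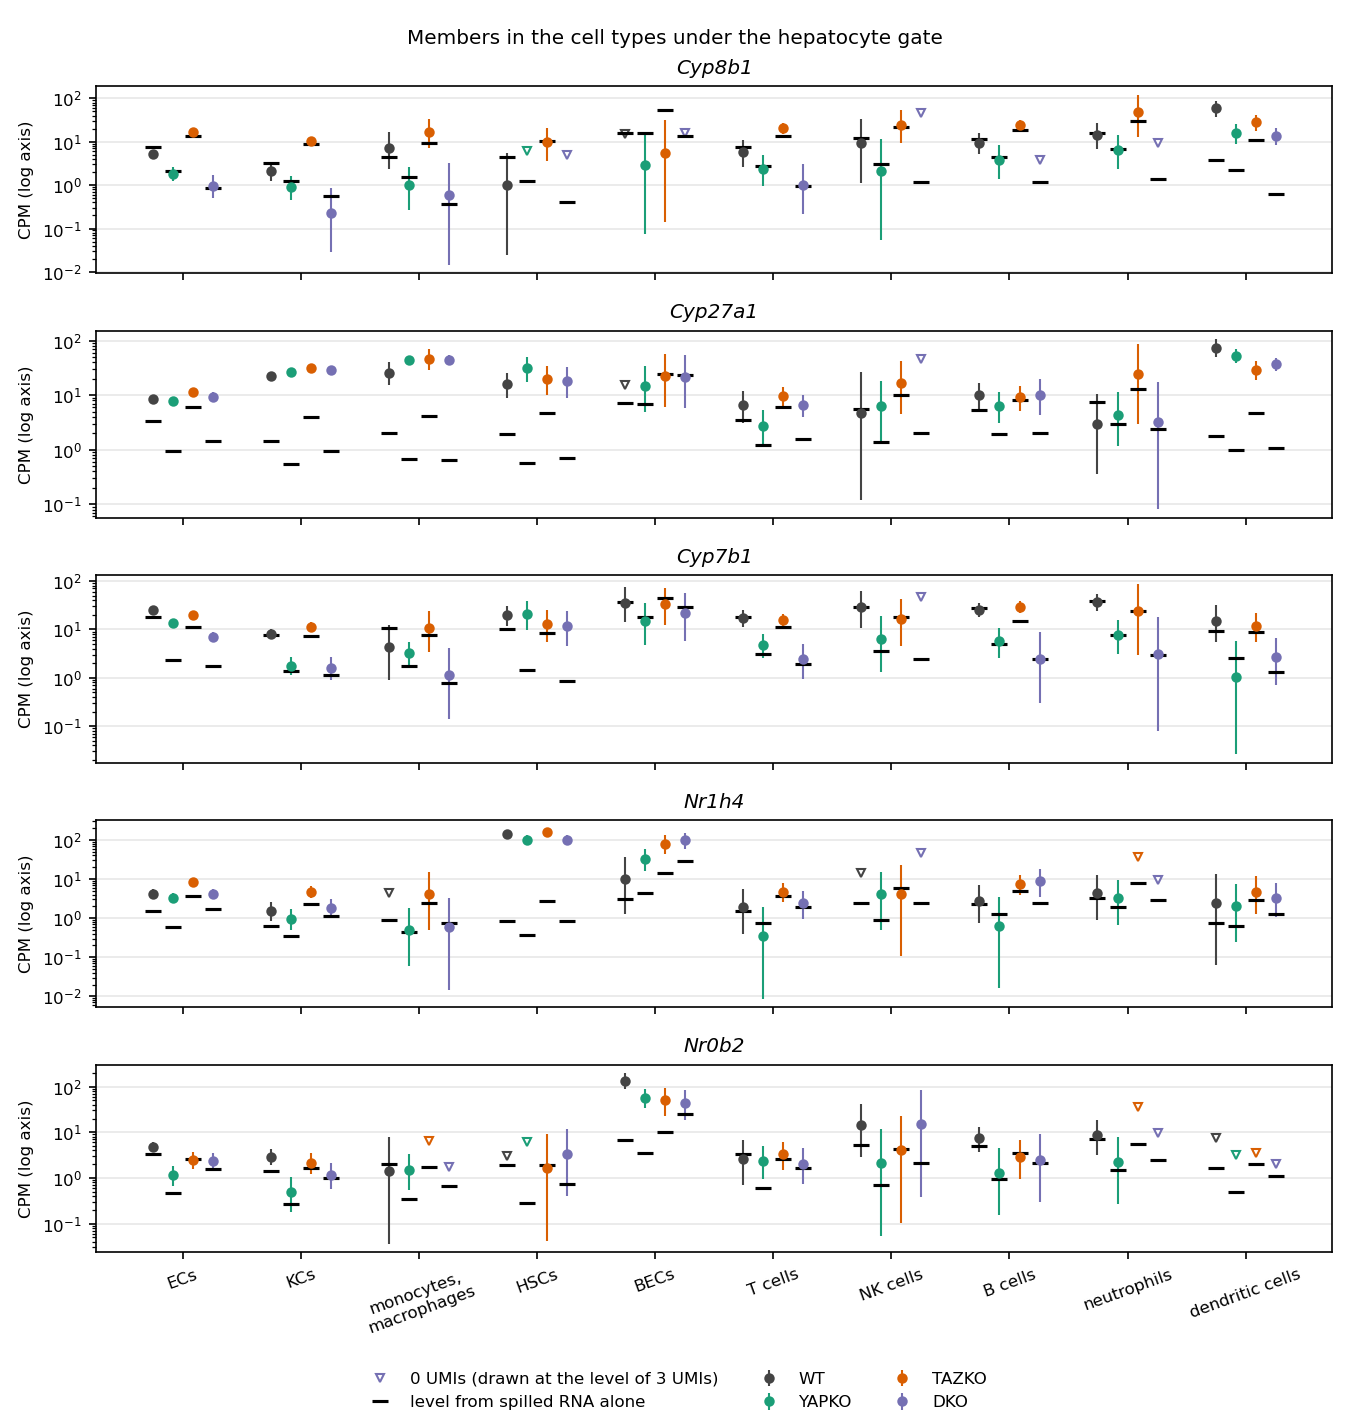
Level of 5 genes (CPM, log axis) in 10 cell types of the 4 libraries; points have exact 95% Poisson intervals, open triangles mark 0 UMIs drawn at the level of 3 UMIs, and black dashes are the level that hepatocyte RNA alone would give. Nr1h4 in HSCs (98.8 to 159.7 CPM), Cyp27a1 in KCs (22.1 to 31.1 CPM) and Cyp8b1 in dendritic cells of WT, YAPKO and DKO (13.8 to 59.2 CPM) stand above the dashes; TAZKO dendritic cells are at 2.60 times theirs.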

How the data were processed

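UMI counts per barcode and gene were deposited by the authors as 1 table per library, made with Cell Ranger (6.0.1 per the labels; the table headers read 4.0.0). Python 3.11.15 with numpy 2.4.6, scipy 1.17.1, pandas 2.3.3 and matplotlib 3.10.9 was used on the raw counts. Barcodes were kept at 500 to 6000 genes and up to 10% mitochondrial UMIs, and hepatocytes taken at 3% of UMIs in 4 genes. Counts were summed per library, scaled to 1000000, and given with exact Poisson, conditional binomial or Clopper-Pearson 95% intervals, which cover counting error only. Hepatocyte UMIs ran from 14371818 in TAZKO to 31451371 in DKO. Ratios were centred on the median of genes with at least 100 UMIs, and the ratio code was checked on simulated data. With 1 library per genotype no test between genotypes was run.

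Members and lists were chosen with earlier results of these data known. Named were all members, pathway genes past 2-fold against WT, and the 3 genes most alike to Cyp7a1, Cyp8b1 and Nr0b2 by correlation of log2 (CPM + 1) among genes with at least 500 UMIs; Hnf4a, Nr5a2, Abcb11, Akr1c6, Mup20, Malat1, the pericentral genes, Cyp2f2 and the clock genes were named after their values were seen. Types under the gate were assigned by 6 markers each, with at least 3 UMIs of at least 2 markers, and barcodes without a clear leading type stayed unassigned. Of the 8 first alternatives, some changed limits: a hepatocyte gate of 10%, a mitochondrial limit of 20%, limits read as UMIs, and at least 5000 UMIs. The others were no centring, no filter on low counts, the mean share per cell, and no cells carrying markers of another type. A further 3 were added after the data were seen (both sides of 1% mitochondrial UMIs, and a pericentral share of at least 50%). Counts over all 11 are given at the end.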

Additional observations from a re-analysis of the deposited data

Results flagged for a closer look

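Barcodes with fewer than 500 genes, which the comparisons left out, held some member transcripts at raw levels at least 2-fold above those of the same barcodes in WT and others below. Cyp7a1 was at 119.9 CPM in TAZKO and 18.0 in DKO, against 2.79 in WT. In TAZKO, Cyp8b1 was at 229 CPM against 75.2 in WT, Nr1h4 at 57.3 against 22.9, and Fgfr4 at 12.3 against 4.18. Also in TAZKO, Klb was at 7.79 CPM against 1.79 in WT, Baat at 211 against 101, and Slc27a5 at 296 against 111. There were 6237 such barcodes in WT, 941 in YAPKO, 5465 in TAZKO and 676 in DKO, not gated as hepatocytes; 94.1%, 74.7%, 87.6% and 63.9% of them reached the 3% gate. Over 5677 genes with at least 100 UMIs in these barcodes, which leaves out Fgfr4 and Klb, the median gene was higher by 0.68 (log2) in TAZKO than in WT, and 41.4% of all genes were at least 2-fold higher. After centring 17.8% were, and Cyp7a1 (4.74) was the 1 member of the 8 tested that was higher, while Cyp8b1 came to 0.92, Slc27a5 to 0.73, Nr1h4 to 0.64 and Baat to 0.38. Lower in TAZKO after centring were Cyp7b1 (-1.23) and Nr0b2 (-1.85), with 22.8% of all genes lower. In DKO after centring Cyp7a1 was higher (2.83; 11.8% of all genes), and Cyp8b1 (-2.03), Cyp7b1 (-2.62) and Nr0b2 (-1.32) were lower (9.58%). In YAPKO 0 of the 8 were higher (8.88%), and Cyp7b1 (-1.59) and Nr0b2 (-2.00) were lower (4.88%). Lower than in WT on the raw levels were Cyp7b1 (209 CPM against 304) and Nr0b2 (33.3 against 74.4) in TAZKO, and the same genes in YAPKO (114 and 20.8). In DKO, Cyp8b1 was at 16.7 CPM, Cyp7b1 at 45.1, Nr0b2 at 27.0, Baat at 59.2 and Slc27a5 at 59.2, all lower than in WT.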

How the results depend on the processing

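Over 40 member values (10 members in 4 comparisons) and 11 alternatives, of which 3 were chosen after seeing the data, 21 values kept their side of the 2-fold limit in all 11. Of 12 values past 2-fold, 4 held in all 11: Cyp7a1 in TAZKO against WT (1.18 to 4.35), Cyp7b1 in DKO against WT (-4.81 to -1.87), and Cyp8b1 in DKO against WT (-4.25 to -1.79) and against YAPKO (-2.82 to -1.68). A hepatocyte gate of 10%, which left 233, 73, 103 and 119 cells, took the count of members past 2-fold in TAZKO against WT from 3 to 1 (3.21% of all genes higher, 5.78% lower) and Cyp7b1 in DKO against YAPKO to 0.06. At that gate Cyp7a1 in TAZKO against WT was at 2.19 on only 11 and 4 UMIs, so its side of the limit there rests on few counts. Reading the limits of 500 to 6000 as UMIs took the YAPKO count from 2 to 4 (3.29% and 6.78%) and Cyp7a1 in DKO against YAPKO to -0.12. Without centring the YAPKO count was 1 (7.25% and 0.966%). Among hepatocytes under 1% mitochondrial UMIs the YAPKO count was 5 (4.40% and 8.19%), and Cyp7a1 was at -0.27 in DKO against WT, on 49 and 19 UMIs with overlapping levels, and at -1.68 against YAPKO. Among hepatocytes with a pericentral share of at least 50% (40 cells in WT) the YAPKO count was 1 (5.74% and 2.47%), and Nr0b2 in TAZKO against WT was at 0.05. For all of these the cause was not tested. No paired analysis was possible because the groups share fewer than 2 replicate numbers (1 library each). Depth limits Fgfr4 and Klb, with 86 to 235 UMIs per library, and Cyp7a1 in WT and YAPKO, with 87 and 167.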
